A study of Mus musculus with 4 samples.

Results

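Described here are 7 genes of lymphocyte recruitment in mouse bladder tumours, followed across cell types in all 4 libraries of the series. They are 4 chemokines, Cxcl10, Cxcl16, Cxcl12 and Ccl5, and 3 chemokine receptors, Cxcr3, Cxcr6 and Cxcr4, out of 30408 genes listed in the matrices. The genes were chosen by name as ligands and receptors of T cell traffic, and all 7 were listed and detected. The tumours were grown from MB49, a mouse bladder carcinoma cell line, in male and in female hosts. The labels used here name no strain, genotype, added treatment or age for the hosts. Live cells were sorted on CD45, the leukocyte surface protein encoded by Ptprc, and 1 BD Rhapsody whole-transcriptome library was made for each combination: male CD45-positive, female CD45-positive, male CD45-negative and female CD45-negative. The series asks how the immune system differs between tumours of the sexes. With 1 library per group no test between the sexes was possible, the number of animals behind each library is not given in the labels, and host sex cannot be told apart from any other difference between 2 libraries.

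Chemokines are small secreted proteins that guide cells carrying matching G protein-coupled receptors. Cxcl10, which interferon-gamma induces together with Cxcl9 and Cxcl11, attracts activated T and NK cells through Cxcr3. Cxcl16 is made as a membrane-bound protein that the protease Adam10 can release, and its receptor Cxcr6 is carried by effector and tissue-resident T cells. Ccl5 attracts T cells and monocytes and is itself a product of cytotoxic lymphocytes. Cxcl12, a product of stromal cells, retains leukocytes through Cxcr4, a receptor of neutrophils, lymphocytes and many other cells. In the GENCODE annotation of GRCm38 all 7 are protein-coding genes: Cxcl10 at chr5:92346638-92348889 (minus strand), Cxcl16 at chr11:70453983-70459984 (minus strand), Ccl5 at chr11:83525778-83530518 (minus strand), Cxcl12 at chr6:117168535-117181367 (plus strand), Cxcr3 at chrX:101731535-101734269 (minus strand), Cxcr6 at chr9:123806475-123811760 (plus strand) and Cxcr4 at chr1:128588199-128592293 (minus strand).

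The RefSeq promoter table for GRCm38.p6 matched 5 of the 7 genes: Cxcl10, Cxcl12, Cxcr3, Cxcr4 and Cxcr6. The 250 bases before the start site of the interferon-induced ligand Cxcl10 are printed beside those of the stromal ligand Cxcl12. By number of UMIs, Cxcl10 was read mainly in leukocytes and tumour cells and Cxcl12 mainly in fibroblasts. The few fibroblasts also held Cxcl10, at levels given in the last section. Capitals mark letters that match the core of the interferon-stimulated response element (ISRE: GAAA, any 2 bases, GAAA) or the consensus for the transcription factor NF-kB, each searched on both strands, with no overlap between the matches.
Cxcl10: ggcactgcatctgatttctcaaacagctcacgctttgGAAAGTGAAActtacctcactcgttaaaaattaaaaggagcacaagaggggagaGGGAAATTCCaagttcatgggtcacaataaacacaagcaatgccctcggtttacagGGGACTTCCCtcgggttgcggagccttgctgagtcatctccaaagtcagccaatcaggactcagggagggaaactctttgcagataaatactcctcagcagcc
Cxcl12: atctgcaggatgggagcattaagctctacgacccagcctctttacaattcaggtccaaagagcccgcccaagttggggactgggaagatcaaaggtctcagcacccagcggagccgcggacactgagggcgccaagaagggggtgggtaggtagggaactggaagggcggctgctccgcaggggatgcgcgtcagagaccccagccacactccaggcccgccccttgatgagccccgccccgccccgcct
The Cxcl10 sequence lies at chr5:92348890-92349139 on the minus strand and the Cxcl12 sequence at chr6:117168285-117168534 on the plus strand. Cxcl10 held 1 ISRE core, whose first base is at position -213 from the start site, and 2 NF-kB consensus matches, at -159 and -103. Neither motif was found in the windows of Cxcl12, Cxcr3, Cxcr4 or Cxcr6. Of all 32851 promoter windows of the same length, 2.98% held the ISRE core and 3.9% the NF-kB consensus.

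Of 22115 barcodes, 19375 passed the cell filters, with 5379 male and 4595 female CD45-positive cells and 5496 male and 3905 female CD45-negative cells. The libraries held 37705608 to 62273035 UMIs. Cells were assigned to types by UMIs of fixed marker genes, none of which is among the 7, and 16276 cells fell into 1 class, 107 into several and 2992 into none. Ungated cells made up 19.5% of the male and 30.4% of the female CD45-positive cells, so the sexes were sampled unequally by the gates. Summed macrophage markers stood at 20335 CPM in male and 17088 CPM in female macrophages. In the other classes compared they reached at most 2324 CPM in male and 3476 CPM in female cells. The gates used these markers, so this contrast was set in advance and does not test the class names. Tumour cells of the CD45-negative libraries carried 2561 CPM (male) and 3113 CPM (female) of the summed epithelial markers and 0 UMIs of Ptprc, whose absence the gate required. Macrophage RNA was also read in cells of other types. The complement genes C1qa, C1qb and C1qc, summed, reached 4.01% to 5.49% of the macrophage level in the other leukocyte classes compared in the male library and 10.1% to 12.7% in the female one, and this difference is given again below beside the results it moves with.

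Levels are given as CPM, the UMIs of a gene scaled to 1000000 UMIs summed over the cells of a class, with exact Poisson 95% intervals. Ratios are male over female with exact conditional binomial 95% intervals, and shares of cells have exact Clopper-Pearson 95% intervals; all of these cover counting error only. A gene was compared where both libraries together held at least 20 of its UMIs in a class of at least 50 cells in each, and was called different at 2-fold or more. Over 10 classes and the 2 whole sorts this gave 63 of 84 possible pairs, of which 3 were called male-higher, 11 female-higher and 49 neither. Over the same 12 comparisons, 2.91% to 6.6% of all tested genes were male-higher and 3.04% to 9.15% female-higher.

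**Figure D1:**
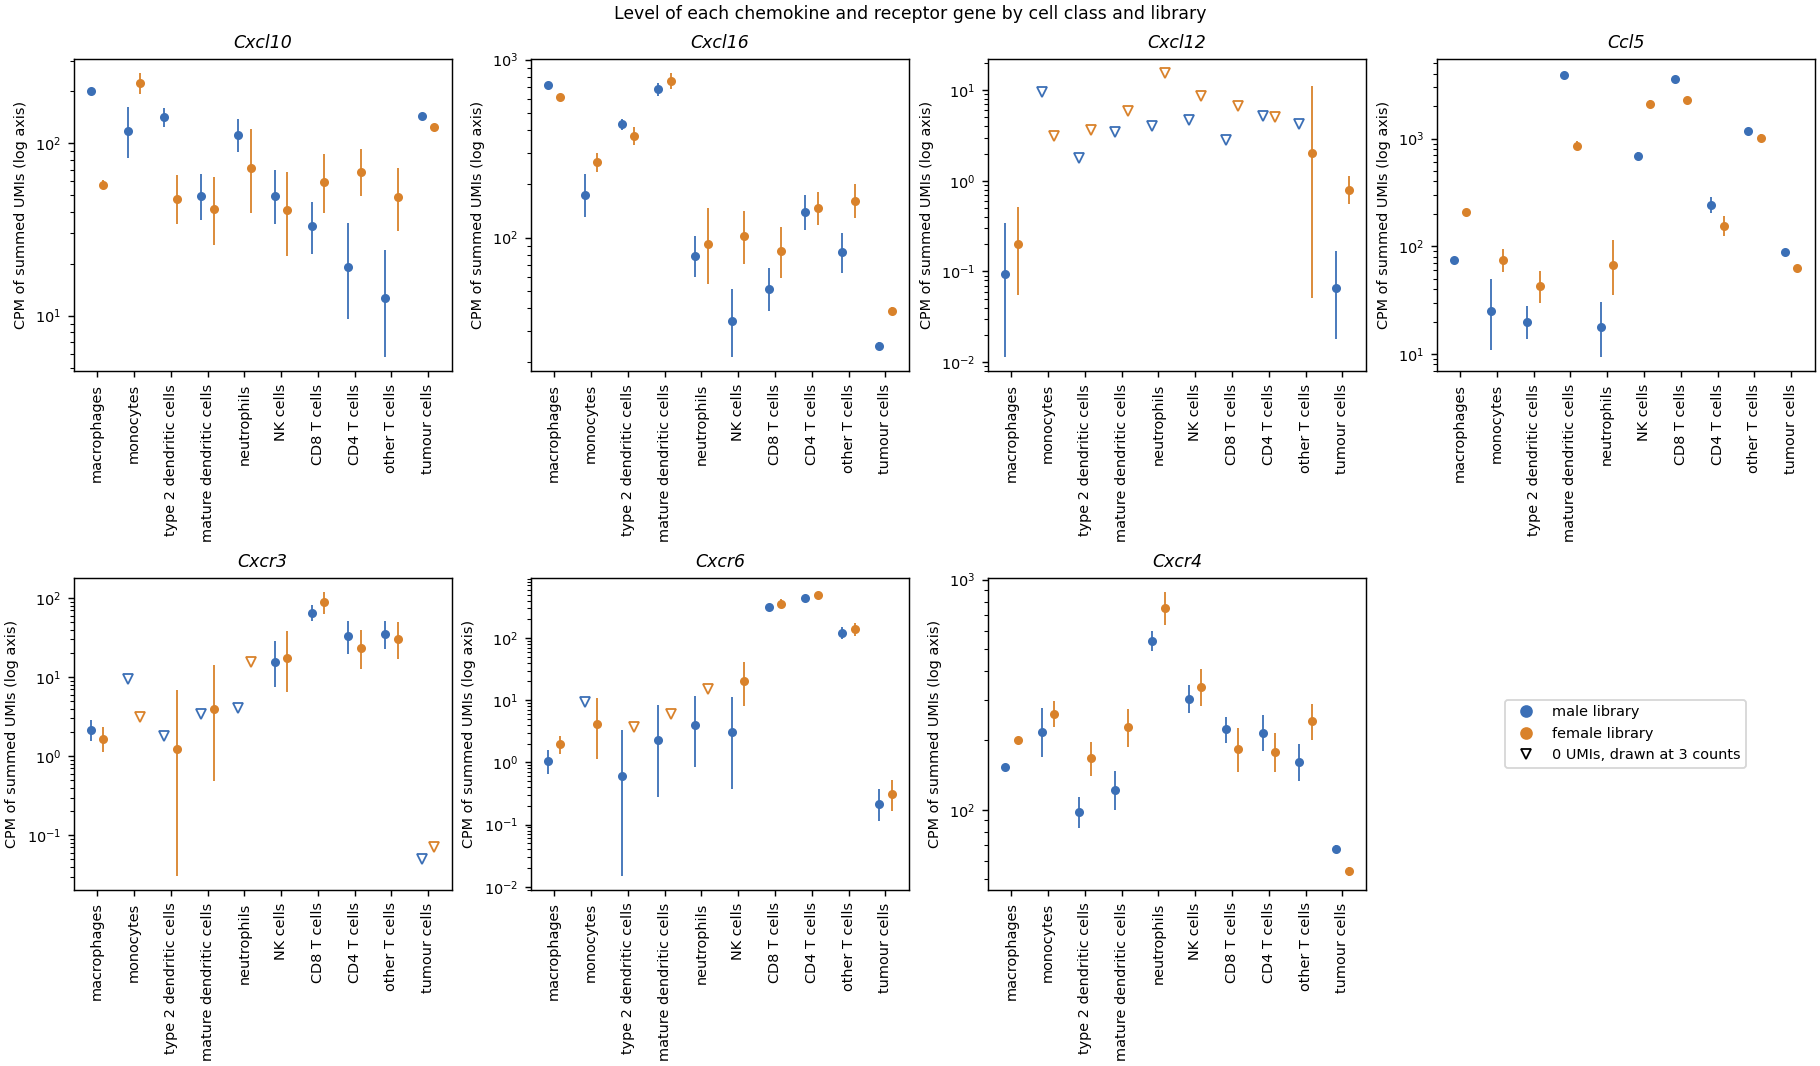
CPM of summed UMIs of each of the 7 genes by cell class, male libraries beside female libraries, on a log axis with exact Poisson 95% intervals. Cxcr3 and Cxcr6 are high in T cell classes and near 0 in myeloid classes, while Cxcr4 is detected in every class shown; the ligands Cxcl10, Cxcl16 and Ccl5 are also detected in every class shown. Open triangles mark 0 UMIs and are drawn at 3 counts.

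Cxcl10 in macrophages was higher in the male library, where macrophages led among the gated leukocyte classes of at least 50 cells. Male macrophages held 4226 UMIs, 199 CPM (193 to 205), and female macrophages 1143 UMIs, 57.3 CPM (54.0 to 60.7), a male:female ratio of 3.48 (3.26 to 3.72). In the male library monocytes led instead when cells were classed by clustering, and 14 gamma-delta T cells, too few to compare, had 635 CPM (435 to 897) on 32 UMIs from 2 cells. Of 6 members tested in macrophages, 1 (Cxcl10) was male-higher and 1 (Ccl5, described later) female-higher, where 3.75% of all tested genes were male-higher and 3.9% female-higher. At 1000 UMIs per cell, 8.47% of male macrophages (7.23 to 9.84) and 3.66% of female macrophages (2.84 to 4.62) had a Cxcl10 UMI; without thinning the shares were 23.7% (male) and 12% (female).

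The macrophages of the sexes lay in different Leiden clusters, which were made without the 7 genes. Of the male and female macrophages 47.5% and 1.93% lay in 1 cluster (numbered 5) and 3.68% and 36.8% in another (3). In a comparison added after the data were seen, 4 of the 8 clusters with at least 50 macrophages held at least 50 of each library. The male:female ratio of Cxcl10 was 1.51 (1.12 to 2.01) in cluster 3, 3.53 (1.76 to 7.69) in cluster 9, 5.12 (4.41 to 5.94) in cluster 12 and 3.19 (2.44 to 4.16) in cluster 14. It was thus above 1 in each of the 4 and below the 2-fold call in cluster 3. Cluster 9 rested on 36 male and 11 female UMIs. Clusters 5, 11, 15 and 29 held too few macrophages of 1 library to be compared. Their levels were 206 CPM (male) and 94.7 CPM (female), 136 and 90.5 CPM, 1431 and 381 CPM, and 94.3 and 187 CPM. Cluster 5 alone held 2395 of the 4226 Cxcl10 UMIs of male macrophages.

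CD8 T cells were set as the background class for Cxcl10, since the gene should be low in them. They had shares of 3.94% (male) and 3.45% (female) at 1000 UMIs per cell. Median depths were 10622 UMIs in male and 8847 in female macrophages and 2235 in male and 2755 in female CD8 T cells. The share in male macrophages thus stood above this background, while that in female macrophages was not separable from it. The CPM of female macrophages, 57.3, likewise did not differ beyond counting error from the 59.5 CPM of female CD8 T cells. That background value rested on 27 UMIs from 5 of 122 cells, with 48.1% of them in 1 cell. The level in CD8 T cells itself depended on the class, its male:female ratio being 0.552 by gates and 1.98 by clusters.

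The Cxcl10 UMIs were concentrated in few cells. The 5% of macrophages with the most Cxcl10 held 74.8% of its UMIs in the male library against 86.3% in the female one, whereas for Cxcl16 the same measure was 15.1% and 17.8%. In each library macrophages with a UMI of Cxcl9, the sister ligand of Cxcr3, were richer in Cxcl10 at equal depth. Male macrophages with Cxcl9 had 275 CPM and those without 93.8 CPM, a ratio of 2.93 (2.30 to 3.77), and female macrophages with Cxcl9 had 136 CPM and those without 49.7 CPM, a ratio of 2.75 (1.92 to 3.92). Macrophages with a Cxcl9 UMI made up 43.2% of the male and 26.4% of the female macrophages at this depth. Cxcl16 was level across the same split, at 763 CPM with and 762 CPM without Cxcl9 in the male library and 690 and 611 CPM in the female one.

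Not all female Cxcl10 lay in gated macrophages. Over the whole CD45-positive sort the level was 147 CPM in the male library against 78.0 CPM in the female one, a ratio of 1.89, which is below the 2-fold call. Macrophages held 71.3% of the male library's Cxcl10 UMIs and 39.2% of the female library's, while ungated cells held 16.2% and 41.4%, at 117 and 104 CPM. Other myeloid classes pointed different ways. Type 2 dendritic cells, which present antigen to CD4 T cells, had 141 CPM in the male library against 47.6 CPM in the female one, a ratio of 2.96 (2.10 to 4.27). Of the 4 members tested there, 1 was male-higher and 1 (Ccl5) female-higher, against 5.13% and 5.02% of all tested genes. In that class 1 cell held 26.4% of the male UMIs and 1 cell 25.6% of the female UMIs, and the ratio was 1.55 when cells were classed by clustering. Monocytes had 117 CPM (82.4 to 161) in the male library against 221 CPM (193 to 253) in the female one, with 35.5% of the female UMIs in 1 cell. By clusters the monocyte ratio turned round, to 1.98 beside 0.528.

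Among lymphocytes Cxcl10 was called female-higher in CD4 T cells, at 19.1 CPM (11 UMIs) in the male library against 68.3 CPM (41 UMIs) in the female one, a ratio of 0.280 (0.130 to 0.555). In that class 0 of 6 tested members were male-higher and 1 female-higher, against 3.59% and 4.65% of all tested genes. Of the female UMIs 78.0% came from 1 cell, and without the cell holding most UMIs too few remained for a comparison. The unclassified T cells (other T cells in the plots), which carried Cd3 but met no subset gate or met more than 1, had 12.6 CPM in the male library against 48.4 CPM in the female one (9 and 24 UMIs), a ratio of 0.260 (0.106 to 0.580). Here too 0 of 6 were male-higher and 1 female-higher, against 4.27% and 4.99% of all tested genes. Macrophage C1q RNA in CD4 T cells stood at 4.64% (male) and 11.1% (female) of its macrophage level; its part in these results was not tested.

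**Figure D2:**
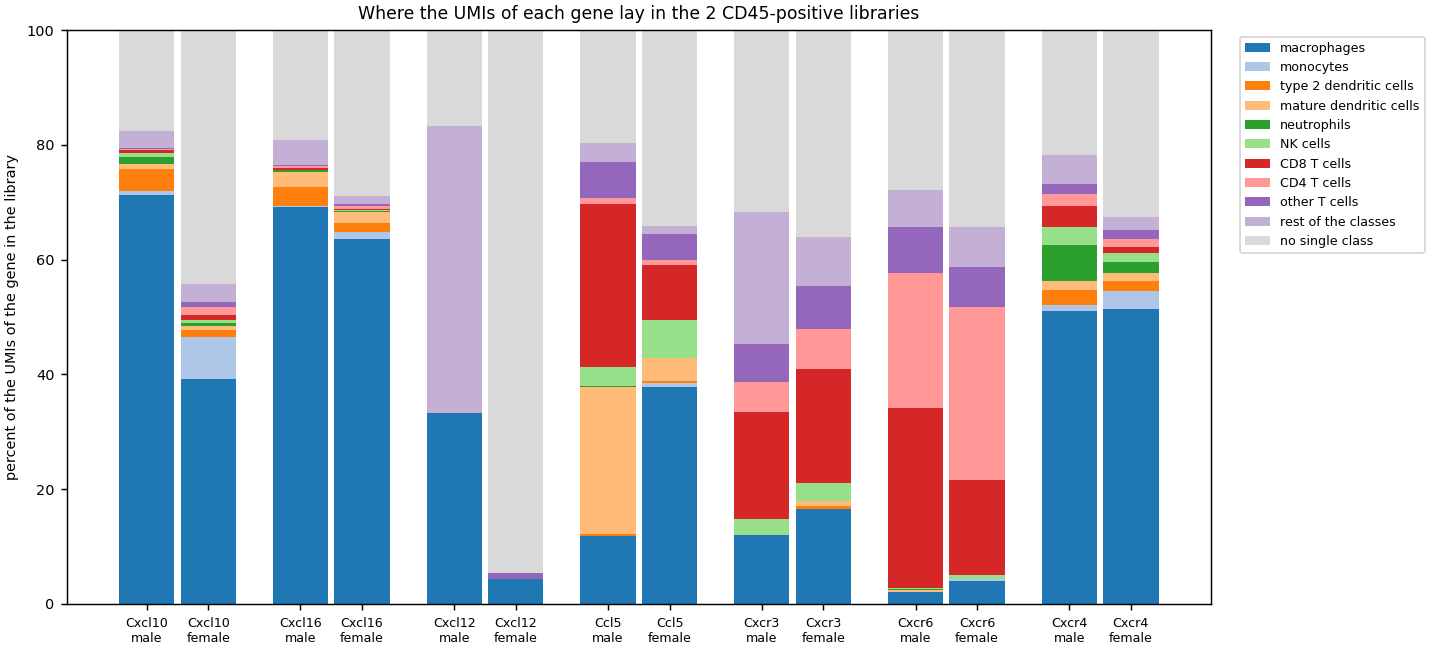
Percent of each library's UMIs of a gene held by each cell class, male CD45-positive beside female CD45-positive; grey is cells in no class or in several. Macrophages held most Cxcl16 in both libraries, 69.1% in the male and 63.5% in the female; for Cxcl10 the macrophage part was 71.3% in the male and 39.2% in the female, and for Ccl5 it was 11.8% in the male and 37.9% in the female.

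Cxcl16, the ligand of Cxcr6, was a broad macrophage and dendritic cell transcript. Among the macrophage and dendritic cell classes compared it differed little between the sexes. Macrophages had 718 CPM (706 to 729) in the male library against 619 CPM (608 to 630) in the female one, a ratio of 1.16 (1.13 to 1.19), and 90.2% of male and 85.7% of female macrophages had a UMI. At equal depth these shares were 50.4% and 44.5%. Mature dendritic cells, the Ccr7-bearing cells that travel to lymph nodes, stood at 679 CPM (625 to 736) in the male library against 757 CPM (683 to 837) in the female one. In the male library they did not differ from macrophages beyond counting error, and in the female library they led. Of the classes compared, type 2 dendritic cells followed at 432 CPM (male) and 371 CPM (female). Type 1 dendritic cells, with too few female cells to compare, had 475 CPM in 180 male cells and 634 CPM in 24 female cells. Over the whole CD45-positive sort the levels were 546 CPM and 520 CPM, a ratio of 1.05.

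Lower levels were read in lymphocytes, with CD4 T cells at 139 CPM (male) and 147 CPM (female) and CD8 T cells at 51.6 CPM and 83.7 CPM. The unclassified T cells had 82.6 CPM (male) and 161 CPM (female), a ratio of 0.512 (0.359 to 0.726). Monocytes had 174 CPM (male) and 264 CPM (female), a ratio of 0.658 (0.482 to 0.883), and neither class met the call. NK cells were called female-higher, at 34.1 CPM (22 UMIs) in the male library against 102 CPM (35 UMIs) in the female one, a ratio of 0.335 (0.187 to 0.587). They were no longer called, at 0.522, when cells were classed by clustering. In NK cells Cxcl16 stood at 4.74% of its macrophage level in the male library against 16.4% in the female one, beside 4.35% and 12.7% for C1q, so both moved together there; the part of macrophage RNA was not tested. CD8 T cells behaved alike, with Cxcl16 at 7.19% (male) and 13.5% (female) of the macrophage level and C1q at 4.45% and 10.7%. CD4 T cells stood further apart from C1q, with Cxcl16 at 19.4% (male) and 23.7% (female) of the macrophage level beside 4.64% and 11.1%.

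Ccl5 was spread differently over cell types in the 2 CD45-positive libraries, at similar levels over the whole sort. That level was 330 CPM in the male library against 293 CPM in the female one, a ratio of 1.13. Mature dendritic cells held 3419 UMIs, 3907 CPM, in the male library against 435 UMIs, 862 CPM (783 to 947), in the female one, a ratio of 4.53 (4.10 to 5.02). In that class 1 of 4 tested members was male-higher and 0 female-higher, against 4.17% and 6.88% of all tested genes. At 1000 UMIs per cell 69.6% of male (61.1 to 77.2) and 31.5% of female (21.1 to 43.4) mature dendritic cells had a Ccl5 UMI. Tumour cells of the CD45-negative sort, which held Ccl5 themselves and so give no background, had 6.79% (male) and 4.47% (female).

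Cytotoxic lymphocytes did not move together, CD8 T cells being moderately higher in the male library and NK cells higher in the female one. CD8 T cells, known to store and release Ccl5, had 3549 CPM in the male library against 2294 CPM in the female one, a ratio of 1.55 (1.44 to 1.66), below the call. NK cells had 689 CPM (445 UMIs) in the male library against 2107 CPM (725 UMIs) in the female one, a ratio of 0.327 (0.290 to 0.368). In NK cells 0 of 4 tested members were male-higher and 2, Ccl5 and Cxcl16, female-higher, against 6.6% and 5.86% of all tested genes. At equal depth 36.3% of male and 53.7% of female NK cells had a Ccl5 UMI. In the female library CD8 T cells (2157 to 2438 CPM) and NK cells (1956 to 2266 CPM) had overlapping intervals, whereas in the male library CD8 T cells were higher than NK cells by far more than counting error. The unclassified T cells had 1176 CPM (male) and 1011 CPM (female), and CD4 T cells 244 CPM and 155 CPM.

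Macrophages had 74.0 CPM (1570 UMIs) in the male library against 208 CPM (4143 UMIs) in the female one, a ratio of 0.357 (0.336 to 0.378). The share at equal depth was 4.89% of male and 9.60% of female macrophages. Within the 4 clusters with at least 50 macrophages of each library, the ratio was 1.10 (0.865 to 1.38) in cluster 3, 1.04 (0.616 to 1.77) in cluster 9, 0.851 (0.689 to 1.04) in cluster 14 and 0.248 (0.212 to 0.288) in cluster 12. The female-higher call was thus met in 1 of these 4 clusters, and in the other 3 the interval included equal levels. Clusters 5, 11 and 15 held too few macrophages of 1 library to be compared. Their levels were 47.4 CPM (male) and 101 CPM (female), 78.1 and 346 CPM, and 182 and 418 CPM. Cluster 29, with 5 female cells, had 46.2 and 34.1 CPM. Clusters 5 and 11 held 47.5% and 18.8% of the male macrophages. Cluster 12 held 2211 of the 4143 female UMIs, at 530 CPM, against 131 CPM in male macrophages of that cluster. As a part of all Ccl5 UMIs of a library, CD8 T cells held 28.4% in the male library against 9.51% in the female one, mature dendritic cells 25.7% and 3.98%, macrophages 11.8% and 37.9%, and NK cells 3.35% and 6.63%. CD8 T cells made up 6.30% of the male and 2.66% of the female CD45-positive cells, and shares of a library move with such numbers and with the sort.

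A further 3 classes with little Ccl5 were called female-higher. Monocytes had 25.3 CPM (8 UMIs) in the male library against 74.5 CPM (71 UMIs) in the female one, a ratio of 0.339 (0.141 to 0.706). Of 4 tested members 0 were male-higher and 1 female-higher there, against 2.91% and 7.89% of all tested genes. Neutrophils had 17.6 CPM in the male library against 66.5 CPM in the female one on 13 UMIs each, a ratio of 0.265 (0.113 to 0.621). Again 0 of 4 were male-higher and 1 female-higher, against 5.88% and 9.15% of all tested genes. Type 2 dendritic cells had 19.8 CPM (33 UMIs) in the male library against 42.8 CPM (35 UMIs) in the female one, a ratio of 0.463 (0.279 to 0.768). The last call turned round, to 1.16, when cells were classed by clustering. C1q in these 3 classes was at 4.67% to 4.96% of its macrophage level in the male library against 10.1% to 11.4% in the female one, and its part in these calls was not tested.

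Cxcl12 was read mainly in fibroblasts, the collagen-producing stromal cells of the CD45-negative sort. The 20 male fibroblasts held 19 UMIs, 116 CPM (69.7 to 181), and the 53 female fibroblasts 266 UMIs, 502 CPM (444 to 566). A UMI was found in 35.0% of male and 77.4% of female fibroblasts. These cells held 55.9% of the Cxcl12 UMIs of the male and 72.5% of the female CD45-negative library, while making up 0.364% and 1.36% of its cells. With 20 male cells the class was too small to be compared. Endothelial cells of the same sort, 11 male and 12 female, had 104 CPM (38.2 to 227) on 6 male UMIs and 149 CPM (77.2 to 261) on 12 female UMIs, so the interval of male fibroblasts overlapped that of male endothelial cells. CD8 T cells had 0 UMIs in 339 male cells, which allows a share of up to 0.885%, and in 122 female cells, which allows up to 2.46%. Such limits are those of 3 counts and hold for cells with a UMI, not for cells expressing the gene.

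The whole CD45-negative sort had 34 UMIs, 0.552 CPM, in the male library against 367 UMIs, 8.41 CPM, in the female one, a ratio of 0.0657 (0.0448 to 0.0934). Of 6 tested members 0 were male-higher and 1 female-higher in this sort, against 4.98% and 5.74% of all tested genes. The fibroblast share of cells moved with the Cxcl12 ratio, and its part was not tested. Tumour cells had 4 UMIs in the male library against 34 in the female one, 0.0662 and 0.799 CPM, a ratio of 0.0828 (0.0213 to 0.232). In tumour cells as well 0 of 6 were male-higher and 1 female-higher, against 5.08% and 4.29% of all tested genes. Summed fibroblast markers in tumour cells stood at 526 CPM in the male library against 342 CPM in the female one. The part of fibroblast RNA in the Cxcl12 ratio of tumour cells was not tested. The whole CD45-positive sort had 6 UMIs in the male library against 92 in the female one, a ratio of 0.0605 (0.0216 to 0.137). Of 7 tested members 0 were male-higher and 1 female-higher, against 5.52% and 3.04% of all tested genes. In the female library 62.0% of these UMIs came from 1 cell, and cells that met several gates held 88.0%.

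**Figure D3:**
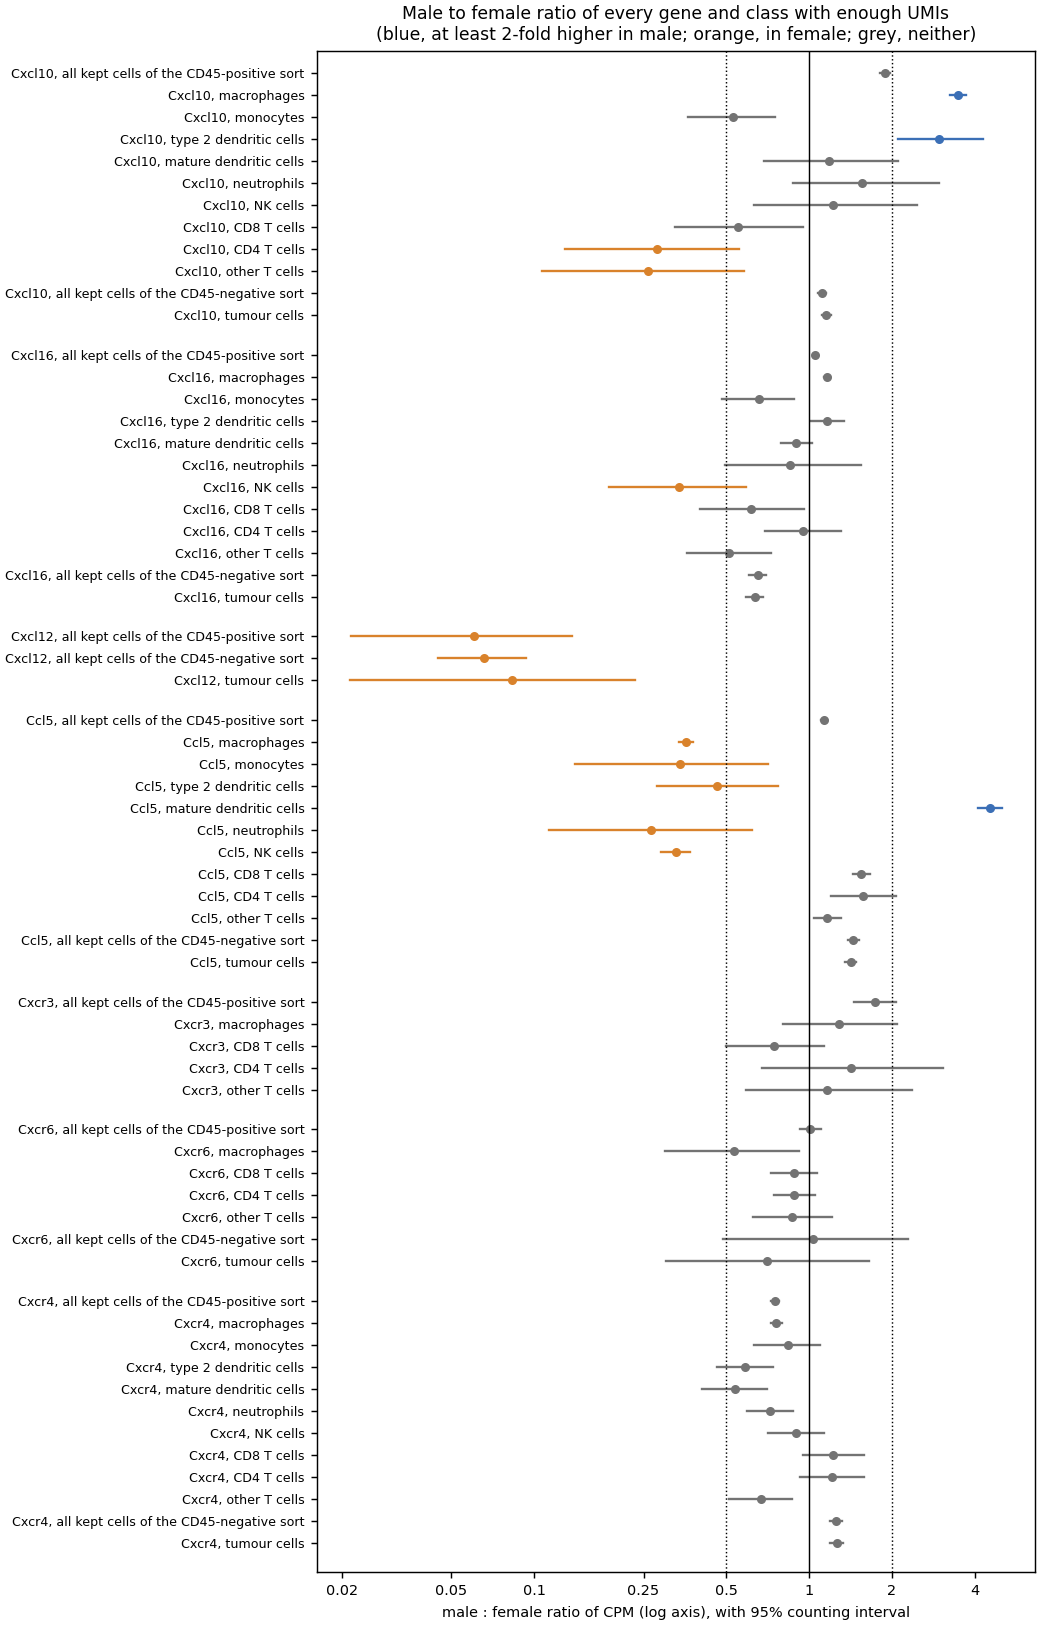
Male:female ratio of CPM on a log axis for each gene and class compared, with exact conditional 95% intervals; vertical lines mark 2-fold either way. Ccl5 lies at 4.53 in mature dendritic cells and 0.327 in NK cells, Cxcl10 at 3.48 in macrophages, and the receptors Cxcr3, Cxcr6 and Cxcr4 lie inside the 2-fold lines in every comparison.

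None of the 24 receptor comparisons met the 2-fold call. Most tested genes were likewise uncalled, with 2.91% to 6.6% male-higher and 3.04% to 9.15% female-higher over the 12 comparisons. Under at least 1 other setting 4 of the receptor comparisons passed the call. Cxcr3 in CD4 T cells, at 1.42, stood at 2.23 with classes from clusters and 2.02 without its top cell. Cxcr4 in type 2 dendritic cells, at 0.585, stood at 0.373 after thinning, and in mature dendritic cells, described later, at 0.458 as a mean over cells. Cxcr6 in macrophages, at 0.531, stood between 0.464 and 0.496 with clusters, as a mean over cells or without its top cell. Cxcr3, the receptor of Cxcl10, was led by regulatory and CD8 T cells. Regulatory T cells had 77.9 CPM (59.1 to 101) in the male library against 56.9 CPM (27.3 to 105) in the female one, where only 45 such cells were kept. CD8 T cells had 65.7 CPM (70 UMIs) in the male library against 88.1 CPM (40 UMIs) in the female one, a ratio of 0.745 (0.498 to 1.13). The intervals of these neighbours overlapped in each library. The unclassified T cells followed at 35.0 CPM (male) and 30.3 CPM (female), CD4 T cells at 33.1 and 23.3 CPM, and NK cells at 15.5 and 17.4 CPM on 10 and 6 UMIs.

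At 1000 UMIs per cell 9.70% of male CD8 T cells (6.73 to 13.4) and 9.48% of female ones (4.83 to 16.3) had a Cxcr3 UMI. Without thinning, neutrophils, the background class, had a Cxcr3 UMI in 0 of 550 male cells, which allows up to 0.545%, and 0 of 142 female cells, which allows up to 2.11%. No Cxcr3 UMI was found in either CD45-negative library, which allows up to 0.0546% of male and 0.0768% of female cells. These limits for a count of 0 are again those of 3 counts, not Clopper-Pearson limits, and hold for cells with a UMI. Over the whole CD45-positive sort the level was 9.25 CPM in the male library against 5.35 CPM in the female one, a ratio of 1.73 (1.45 to 2.06). The CD8 T cell share of the sort, 6.30% male and 2.66% female, and the regulatory T cell share, 3.07% and 0.979%, moved in the same direction. Type 1 dendritic cells, which cross-present antigen, had 24 Cxcr3 UMIs in 180 male cells and 0 in 24 female cells.

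Cxcr6, the receptor of Cxcl16, was higher in CD4 T cells than in CD8 T cells in each library. The CD4 T cell gate required a Cd4 UMI and no UMI of Foxp3 or the Cd8 genes. In the clustering, 254 of these cells lay in CD4 T cell, 51 in regulatory T cell and 16 in CD8 T cell clusters. CD4 T cells had 435 CPM (383 to 492) in the male library against 493 CPM (438 to 552) in the female one, a ratio of 0.883 (0.743 to 1.05). CD8 T cells had 314 CPM (282 to 350) in the male library against 357 CPM (304 to 416) in the female one, a ratio of 0.881 (0.728 to 1.07). Of the 6 members tested in CD8 T cells 0 were male-higher and 0 female-higher, against 5.02% and 3.72% of all tested genes. The CD4 and CD8 intervals did not overlap in either library. Below them came the unclassified T cells at 120 CPM (male) and 139 CPM (female) and regulatory T cells at 68.5 and 79.6 CPM. Gamma-delta T cells, few in number, held 15 UMIs in 14 male cells and 55 UMIs in 38 female cells, at 298 and 590 CPM.

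At equal depth 32.3% of male CD4 T cells (25.7 to 39.4) and 39.0% of female ones (31.1 to 47.5) had a Cxcr6 UMI. Neutrophils gave 0.737% in the male library against 0 in the female one. NK cells had 2 UMIs in the male library against 7 in the female one, and macrophages 1.04 and 1.95 CPM. The whole-sort levels were 26.4 CPM (male) and 26.3 CPM (female). Within CD8 T cells, those with a Cxcr6 UMI had 100 CPM and those without 108 CPM of Cxcr3 in the male library, and 114 and 98.8 CPM in the female one. Pdcd1, which encodes the inhibitory receptor PD-1, stood at 638 CPM in male CD8 T cells with Cxcr6 and 352 CPM in those without, a ratio of 1.81 (1.26 to 2.59). In the female library the ratio was 0.609 (0.178 to 1.69) on 5 and 19 UMIs, an interval that overlaps the male one. As shares of male cells, 35.0% of the 80 with Cxcr6 and 26.8% of the 250 without had a Pdcd1 UMI. Splitting the male CD8 T cells by Pdcd1 instead gave 347 CPM of Cxcr6 with Pdcd1 and 272 CPM without. That ratio was 1.28 (0.812 to 1.97), an interval that spans 1. The same split of female cells, with 16 carrying Pdcd1, gave 0.676 (0.175 to 1.88). Male CD4 T cells with Cxcr6 had less Ccl5 than those without, 115 and 352 CPM, a ratio of 0.326 (0.124 to 0.729), while female ones had 246 and 270 CPM.

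Cxcr4, the receptor of Cxcl12, was detected in every class compared, tumour cells included. Neutrophils led in each library, at 541 CPM (489 to 597) in the male and 752 CPM (636 to 884) in the female, a ratio of 0.719 (0.594 to 0.875). NK cells came next among the classes compared, at 303 CPM (male) and 340 CPM (female). CD8 T cells had 223 CPM (male) and 183 CPM (female) and CD4 T cells 216 and 178 CPM, intervals that overlapped within and between the sexes. Monocytes had 218 and 261 CPM. Macrophages had 153 CPM in the male library against 201 CPM in the female one, a ratio of 0.760, and held 51.0% and 51.4% of all Cxcr4 UMIs of the CD45-positive libraries.

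For Cxcr4 mature dendritic cells came nearest to a call, with 122 CPM (100 to 148) in the male library against 228 CPM (188 to 274) in the female one, a ratio of 0.536 (0.408 to 0.704). At equal depth 32.2% of male and 41.0% of female neutrophils and 26.7% of male and 36.6% of female NK cells had a Cxcr4 UMI. CD8 T cells gave 21.5% (male) and 12.1% (female), and tumour cells, which give no background for this receptor, 5.96% and 5.13%. Over the whole CD45-positive sort the level was 158 CPM in the male library against 209 CPM in the female one, a ratio of 0.753.

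**Figure D4:**
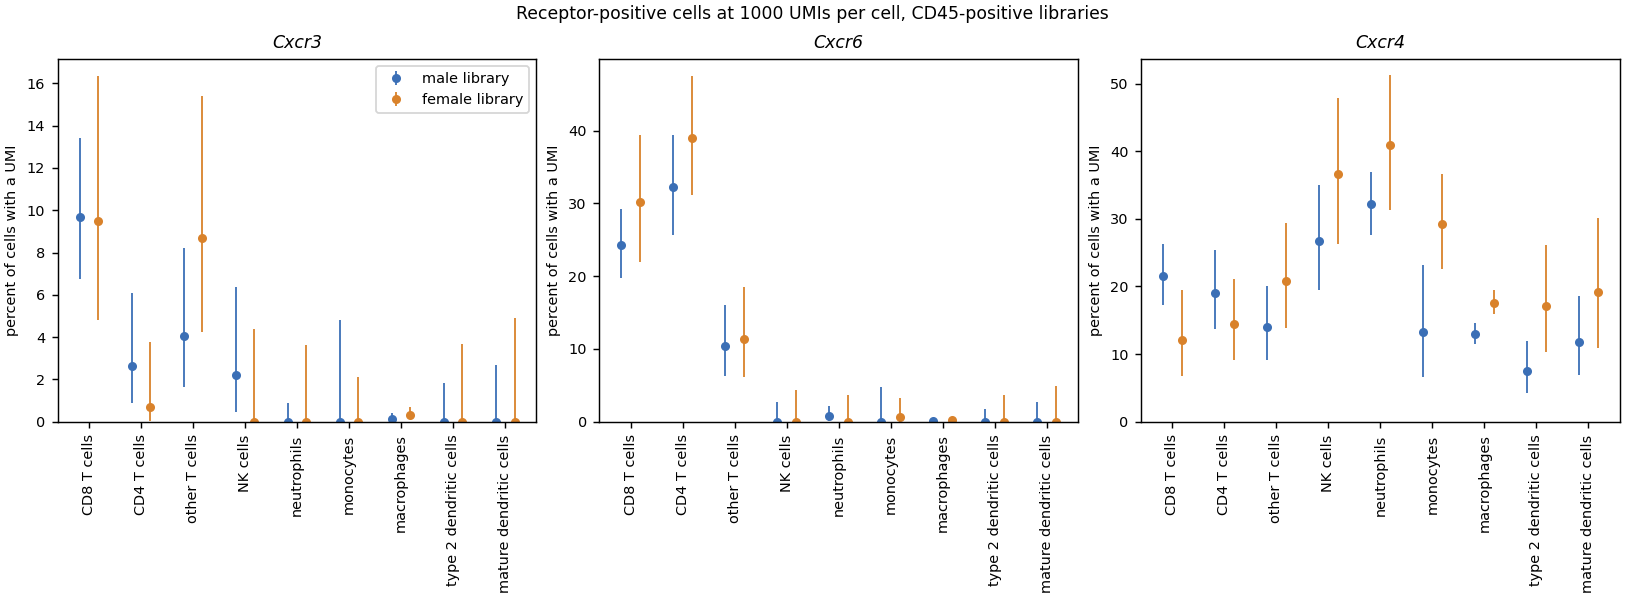
Percent of cells with a UMI of Cxcr3, Cxcr6 or Cxcr4 after thinning each cell to 1000 UMIs, by class, male beside female, with exact Clopper-Pearson 95% intervals. Cxcr6 reaches 32.3% in male and 39.0% in female CD4 T cells, and Cxcr3 9.70% in male and 9.48% in female CD8 T cells.

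Tumour cells of the CD45-negative sort held their own share of the ligands. Cxcl10 stood at 143 CPM in male and 124 CPM in female tumour cells, a ratio of 1.16 (1.12 to 1.20), Ccl5 at 88.2 and 62.4 CPM, 1.41 (1.35 to 1.48), and Cxcl16 at 24.6 and 38.8 CPM, 0.634 (0.591 to 0.681). The receptor Cxcr4 was at 67.9 CPM (male) and 54.0 CPM (female), 1.26 (1.19 to 1.32). The macrophage C1q genes were at 2.46 CPM (male) and 2.40 CPM (female) in these cells, against 11916 and 10668 CPM in macrophages. Cxcl10 was again concentrated, the top 5% of tumour cells holding 76.4% (male) and 71.3% (female) of its UMIs.

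Tumour cells with a Cxcl10 UMI at 1000 UMIs per cell numbered 334 against 4568 without in the male library and 236 against 3275 in the female. Cxcl9 was 5.65-fold higher in those with Cxcl10 in the male library (5.06 to 6.30), at 1389 against 246 CPM, and 4.88-fold higher in the female, at 1174 against 241 CPM. Irf1, an interferon-induced transcription factor, was 3.38-fold (2.66 to 4.27) higher in the male library and 2.40-fold (1.87 to 3.05) higher in the female library. Ccl5 was 2.04-fold (1.55 to 2.64) higher in the male library and 3.08-fold (2.09 to 4.45) higher in the female one. Cxcl16 and Cxcr4 were not separated by this split, with ratios of 0.940 and 1.16 in the male library against 0.903 and 1.13 in the female one, whose intervals span 1. Cells of 1 library share their source, so these splits describe each library.

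**Figure D5:**
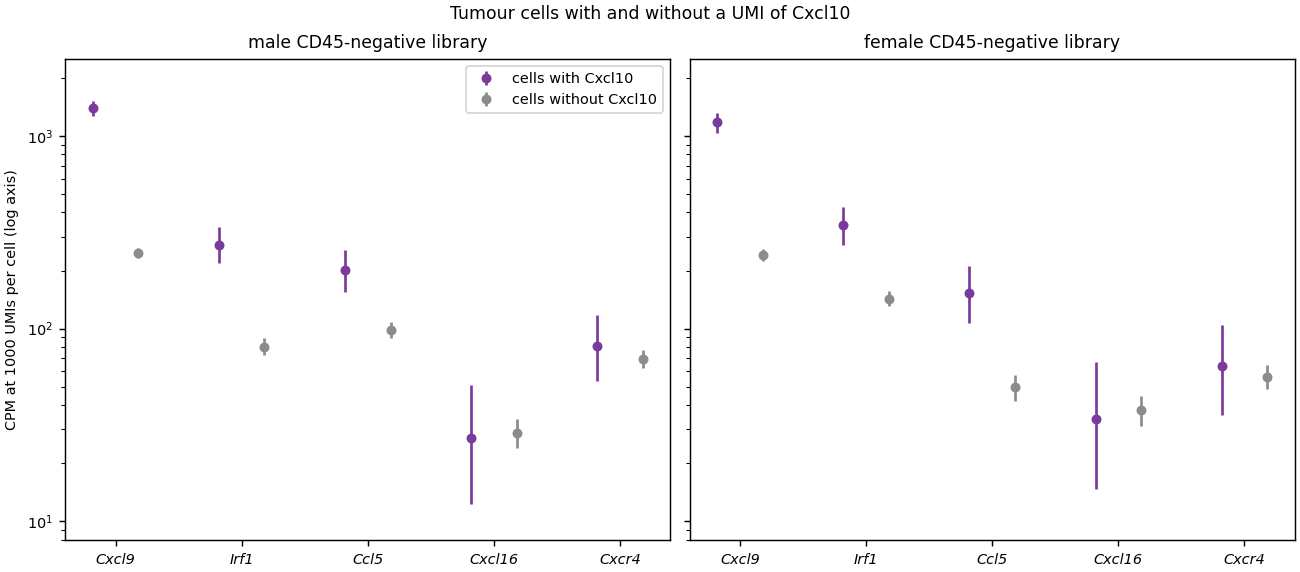
CPM at 1000 UMIs per cell in tumour cells with and without a Cxcl10 UMI, male beside female CD45-negative library, on a log axis with exact Poisson 95% intervals. Cxcl9, Irf1 and Ccl5 are higher in the cells with Cxcl10 in each library, and Cxcl16 and Cxcr4 overlap.

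A list of 36 other chemokine, receptor, modulator and interferon-gamma genes, 34 of them listed in the matrices, sets the 7 genes in their pathway. In macrophages 27 were tested, of which 6 were male-higher, 3 female-higher and 18 neither, against 3.75% male-higher and 3.9% female-higher of all tested genes. The median log2 ratio of the 27 was 0.05, beside -0.09 for the 6 members tested and -0.01 for all tested genes. Cxcl9 had 1817 CPM in male and 637 CPM in female macrophages, a ratio of 2.85 (2.80 to 2.91), and Cx3cr1, the fractalkine receptor, 271 and 60.5 CPM, a ratio of 4.48 (4.21 to 4.77). The other male-higher genes were Cxcl11 (2.46), Ccr7 (2.40), Cx3cl1 (2.15) and Dpp4 (2.06), the protease that trims Cxcl10. The female-higher ones, Ackr3 (0.246), a scavenger of Cxcl12, Ifng (0.113) and Ccr8 (0.403), rested on 20 to 29 UMIs each. Other abundant genes of the list were near equal or moderately lower in the male library: Ccl8, a ligand of Ccr8 among others, had 2200 and 2833 CPM, Rgs1 1174 and 1248 CPM and Ccr1 399 and 398 CPM. Ccr7 and Ccr2 are also markers used in the gates.

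In mature dendritic cells, where Ccl5 was male-higher, 19 genes of the list were tested, 2 male-higher, 4 female-higher and 13 neither, with a median log2 ratio of 0.29 beside 0.04 for the 4 members and -0.08 for all tested genes. The shares of all tested genes were 4.17% male-higher and 6.88% female-higher. Ccl22, a Ccr4 ligand, had 5172 CPM in the male library against 2083 CPM in the female one, a ratio of 2.48 (2.32 to 2.66), and Cx3cl1 gave 2.59 on 18 and 4 UMIs. Ccl17, the other Ccr4 ligand, was at 1632 and 993 CPM, Ccr7 at 3153 and 2961 CPM, Rgs1 at 1539 and 1056 CPM and Dpp4 at 281 and 218 CPM. The female-higher genes were Ccl8 (0.208), Cxcl9 (0.483), Adam10 (0.437) and Ccr1 (0.392). C1q stood at 4.01% of its macrophage level in male and 10.3% in female mature dendritic cells, and its part in the female-higher values was not tested.

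In CD8 T cells 22 of the list were tested, 3 male-higher, 5 female-higher and 14 neither, with a median log2 ratio of -0.33 beside -0.30 for the 6 members and 0.01 for all tested genes. The shares of all tested genes were 5.02% male-higher and 3.72% female-higher. Ccl4, a chemokine of activated T cells, had 98.5 CPM in the male library against 487 CPM in the female one, a ratio of 0.202 (0.159 to 0.256), Ifng 52.6 and 134 CPM (0.391) and Ccl3 63.8 and 161 CPM (0.397). Ccl8 (0.344) and Ccr1 (0.380), both abundant in macrophages, were female-higher too, beside C1q at 4.45% (male) and 10.7% (female) of its macrophage level, whose part was not tested. The male-higher genes were Ccr7 (4.09), Ccl17 (2.13) and Cx3cr1 (2.07). Of the most abundant, Rgs1 at 1405 and 989 CPM, Ifngr1 at 1079 and 1051 CPM, Xcl1 at 241 and 353 CPM and Ccr2 at 244 and 326 CPM, were not called.

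NK cells, where Ccl5 and Cxcl16 were female-higher, gave 18 tested genes of the list, 0 male-higher, 7 female-higher and 11 neither, with a median log2 ratio of -0.58 beside -0.87 for the 4 members and 0.01 for all tested genes. The shares of all tested genes were 6.6% male-higher and 5.86% female-higher. Ifng had 38.7 CPM in the male library against 183 CPM in the female one, a ratio of 0.211 (0.127 to 0.341), and Ccl4 and Ccl3 had ratios of 0.457 and 0.328. The other female-higher genes were Ccl8 (0.217), Ccr1 (0.218), Ifngr2 (0.376) and S1pr1 (0.399). Xcl1, which draws type 1 dendritic cells, was at 844 CPM in the male library against 436 CPM in the female one, a ratio of 1.94 (1.61 to 2.33). In CD4 T cells Ifng went the other way, with 186 CPM in the male library against 84.9 CPM in the female one, a ratio of 2.19 (1.56 to 3.12). Among the 24 genes of the list tested there, 5 were male-higher, 4 female-higher and 15 neither, against 3.59% and 4.65% of all tested genes.

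In tumour cells 22 of the list were tested, 3 male-higher, 7 female-higher and 12 neither, with a median log2 ratio of -0.49 beside -0.15 for the 6 members and 0.02 for all tested genes. The shares of all tested genes were 5.08% male-higher and 4.29% female-higher. Cxcl9 was at 343 CPM in the male library against 308 CPM in the female one, Adam10 at 208 and 264 CPM, Adam17 at 147 and 146 CPM, Ifngr1, a chain of the interferon-gamma receptor, at 120 and 108 CPM, and Irf1 at 94.2 and 146 CPM, a ratio of 0.646 (0.623 to 0.670). The male-higher genes, Cxcl13 (91 male and 2 female UMIs), Ccl20 (19 and 1) and Cxcl11 (176 and 58), were rare, with at most 2.91 CPM in male tumour cells. The female-higher ones were Ccr7 (0.374), Ccl8 (0.152), Ccr1 (0.432), Ccl17 (0.473), Xcr1 (0.342), Ccr4 (0.495) and Rgs1 (0.325), the highest of them Ccr7 at 12.2 CPM in male and 32.5 CPM in female tumour cells.

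Across 24 points, the classes of at least 50 cells in each library, the genes most alike in pattern were found among 4557 genes by Pearson correlation of log2(CPM + 10). The points share libraries and free RNA, and the values are a description. Cxcl10 was most like Itga5 (0.825), Fndc3b (0.772) and Map7d1 (0.770), and Cxcl16 like Tbc1d9 (0.919), Plekho1 (0.914) and Hfe (0.910). Ccl5 followed AW112010 (0.870), 2410006H16Rik (0.861) and Tcf7 (0.861). Cxcr3 followed Lat (0.939), Cd2 (0.922) and S1pr4 (0.922), and Cxcr6 followed Themis (0.979), Cd3g (0.967) and Lat (0.961), with Cd3g a marker used in the gates. Cxcr4 was most like Dusp5 (0.908), Tnfrsf1b (0.892) and Mxd1 (0.889). For Cxcl12 the correlations of 0.999 with Loxl1, Rian and Efemp1 rest on the 1 point where it is high, female fibroblasts.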

How the data were processed

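UMI counts per gene and cell, not normalized, were deposited by the authors as 1 matrix per library. Per the submitters' processing notes CASAVA 1.8, UMI-tools, Seurat and the build mm10 were used; the aligner was not given in the sources used here. Cells with at least 500 UMIs, 250 genes and at most 25% mitochondrial UMIs were kept. Cells are numbered anew in each library, so shared barcodes could not be counted. Cell types were gated on marker UMIs, with thresholds set after marker UMIs were seen: macrophages needed at least 80 macrophage marker UMIs per 10000 and 4 detected markers, other leukocytes under 50 per 10000 and 2 or 3 detected markers of their own, with Cd3 genes required for T cells and barred for NK cells. Class names stand for these gates. Scrublet's own threshold marked 0, 1, 0 and 1 cells, so it did not work as a doublet caller and no cell was removed; leaving out the top 5% of scores was an alternative.

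UMIs were summed per class and library and scaled to CPM (Python 3.11.15, numpy 2.4.6, scipy 1.17.1, pandas 2.3.3), with 95% intervals. The code for ratios and their intervals was run on simulated Poisson counts. Such counts meet what the intervals assume, so the run checks the code and not the intervals for UMIs concentrated in few cells. A level or ratio against 0 uses a floor of 3 counts. Shares and splits of cells were compared after thinning to 1000 UMIs per cell, leaving out shallower cells. Sex-linked, mitochondrial, ribosomal, haemoglobin, immunoglobulin and T cell receptor genes were left out of the background of all tested genes. Genes were named by a rule: the 7 members always, of the pathway list the 5 with most UMIs and those called, and for each member the 3 genes most alike. Genes that the counts include and that this rule would name are in part not reported here. The members and lists were chosen with earlier results of these data known. Alternative classes came from Leiden clustering (scanpy 1.11.5, leidenalg 0.10.2, python-igraph 0.11.9; 2000 variable genes without the members, 30 components, 15 neighbours, resolution 1.5). Other alternatives were stricter cell filters, 500 UMIs per cell, a mean over cells, totals without mitochondrial and ribosomal genes, a 1.5-fold call and 100 UMIs per gene. Figures were drawn with matplotlib 3.10.9.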

Additional observations from a re-analysis of the deposited data

Results flagged for a closer look

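Cxcl10 and Ccl5 were called male-higher in some classes of the CD45-positive sort and female-higher in others; with 1 library per sex the difference between classes was not tested. The male:female ratio of Cxcl10 was 3.48 in macrophages and 2.96 in type 2 dendritic cells, against 0.280 in CD4 T cells and 0.260 in the unclassified T cells. The CD4 T cell value rested on 11 male and 41 female UMIs and that of the unclassified T cells on 9 and 24. For Ccl5 the ratio was 4.53 in mature dendritic cells, against 0.327 in NK cells, 0.357 in macrophages (0.248 to 1.10 within the single clusters that could be compared), 0.339 in monocytes, 0.265 in neutrophils and 0.463 in type 2 dendritic cells. The monocyte value rested on 8 male and 71 female UMIs and the neutrophil value on 13 each. With classes from clusters, the ratios in type 2 dendritic cells were 1.55 for Cxcl10 and 1.16 for Ccl5.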

How the results depend on the processing

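Across the alternatives in cells, classes and totals, 3 or 4 pairs were called male-higher and 10 to 13 female-higher, beside 3 and 11, except where fewer UMIs entered. After thinning to 1000 UMIs per cell, 46 pairs could be compared, 3 male-higher and 4 female-higher, and 4 of 7 members kept their leading class in the male CD45-positive library. With at least 100 UMIs per pair 43 remained, 3 male-higher and 3 female-higher. At 1.5-fold, 8 pairs were male-higher and 22 female-higher. No share of all tested genes was computed for any of these alternatives, so their counts have none beside them and show no excess of either side. Thinning and the minimum of 100 UMIs leave fewer pairs by construction, whereas the 1.5-fold call uses the same 63 pairs. Ccl5 in type 2 dendritic cells turned to 1.16 with classes from clusters, whose cause was not tested. Within single clusters, added after the data were seen, Ccl5 in macrophages was 1.10 in cluster 3 and 1.04 in cluster 9, turned from 0.357; the cause was not tested. With clusters, uncalled ratios also turned for Cxcr4 in CD8 T cells (1.22 to 0.882), and a mean over cells turned Cxcr3 in macrophages (1.28 to 0.775). Over the alternatives other than single clusters the Cxcl10 ratio in macrophages ran between 2.37 and 3.72, the Ccl5 ratio in mature dendritic cells between 4.37 and 5.94, in NK cells between 0.298 and 0.365 and in macrophages between 0.330 and 0.421. The Cxcl10 ratio in type 2 dendritic cells ran between 1.55 and 6.37. Of the ratios, 19 of 46 moved beyond counting error after thinning, 11 of 63 with a mean over cells, 7 of 57 with clusters, 3 of 63 without the top Scrublet scores, and none with a stricter cell filter, other totals or the top cell left out. With clusters 1 further ratio, that of Ccl5 in type 2 dendritic cells, turned round and so also lay outside its interval. Shares of cells moved in 142 of 196 cases at 1000 UMIs and in 156 at 500. Unclassified T cells have no counterpart among the clusters. No paired analysis was possible because each group has 1 library. Depth limits the Cxcr3 values, which rest on 6 to 70 UMIs in the lymphocyte classes compared.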

Other observations

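Classes too small to compare held further sources of the 7 genes. Type 1 dendritic cells carried 475 CPM of Cxcl16 (444 to 508) in 180 male cells and 634 CPM (542 to 738) in 24 female cells, where 38.7% of the UMIs sat in 1 cell. Female gamma-delta T cells, 38 in number, had 376 CPM of Cxcr4 (262 to 522), 816 CPM of Ccl5 (643 to 1021) and 161 CPM of Cxcl10 (90.1 to 266). Fibroblasts had 61.0 CPM of Cxcl10 on 10 UMIs in 20 male cells and 293 CPM on 155 UMIs in 53 female cells. Regulatory T cells had 301 CPM of Ccl5 (263 to 343) in 165 male cells and 171 CPM (115 to 244) in 45 female cells. The few cells with tumour markers in the CD45-positive sort, 55 male and 23 female, had 113 and 40.1 CPM of Cxcl10. Female macrophages with an Spp1 UMI, 17.5% at equal depth, had 165 CPM of Cxcl10 and those without 52.9 CPM, while their shares of cells with a Cxcl10 UMI were 3.43% and 3.70%. In the male library 3.96% of macrophages had an Spp1 UMI, with 264 CPM of Cxcl10, against 168 CPM in those without (ratio interval 0.931 to 2.49).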
